A study of Mus musculus with 83 samples.

Results

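The 6 genes described here belong to the imprinted Dlk1-Dio3 domain on mouse chromosome 12 and were followed through small RNA libraries: Dlk1, Meg3, Rtl1, Rian, Mirg and Dio3. They were taken by name from the 32101 features of the table, so 6 of 32101 features are described here. The rule for them used no measured value, but earlier results of these data were known when they were chosen. Because small RNA features lie inside several of these genes, each gene was described by all reads over its span and by the reads that remained once the reads of every contained feature under 150 bp were subtracted. Dlk1, Rtl1 and Dio3 are protein-coding genes expressed from the paternal chromosome: Dlk1 encodes a transmembrane protein of the Notch ligand family, Rtl1 a retrotransposon-derived protein needed in the placenta, and Dio3 the deiodinase that inactivates thyroid hormone. Meg3, Rian and Mirg are long non-coding RNAs of the maternal chromosome, and Rian and Mirg are hosts of snoRNAs and miRNAs. In this domain a methylated control region on the paternal chromosome keeps the non-coding RNAs silent there, and cultured ESCs are known to vary in their expression. The miRNAs inside Rtl1 are read from the opposite, maternal strand.

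Small RNAs of 20 to 24 nt were sequenced from mouse ESCs (background E14 in the labels) with a conditional Dnmt1 deletion, Dnmt1 being the enzyme that maintains DNA methylation. Control and Dnmt1 KO cells were compared on days 1, 3, 6, 9, 11 and 25 with 3 libraries each, 36 libraries in all. In the study's methods the deletion is made by Cre after tamoxifen (4OHT), and the ESCs were kept in serum and LIF with or without feeder cells. Those methods give the strain of the conditional Dnmt1 ESCs as C57BL/6, which differs from the E14 of the labels. The labels name no tamoxifen treatment for either group and no separate cultures, so p-values measure the spread between these libraries, which may be technical. AGO2, the Argonaute protein that carries miRNAs, was immunoprecipitated from control and Dnmt1 KO cells, with 4 libraries each and no day in the labels. Single libraries came from primordial germ cells (PGCs) of E13.5 and E14.5, female and male, of background C57BL/6 in the labels, which the study sorted as Oct4-GFP-positive cells, and 1 control and 1 Dnmt1 KO library labelled none. Groups follow the library titles. The genotype entry of the AGO2, the none and the R1-ending libraries of days 1 to 9 is the reverse of their titles, so directions in these rest on the titles.

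Library totals ran from 870481 to 6239009 reads on days 1 to 11, from 521066 to 815523 on day 25, from 11497718 to 25423039 in AGO2 control, from 1152390 to 11520133 in AGO2 Dnmt1 KO and from 1734576 to 3435993 in the PGCs. Levels are given as RPM, the reads scaled to a common library total, and all intervals cover counting error only. Dnmt1 itself, the deleted gene, had 23.1 to 95 RPM in the 18 control libraries and 18.1 to 64.3 RPM in the 18 Dnmt1 KO libraries. Its log2 difference ran from -0.47 to 0.50 over the days, with a lowest adjusted p of 0.0617 (limma), and short reads over a gene are no measure of its mRNA or of the deletion, so the genotype was not checked by it. All 12 ESC miRNAs of the miR-290 and miR-302 clusters had reads in every ESC group, but their levels were not equal between the genotypes. Mir302a had means of 186 RPM in control against 54.6 RPM in Dnmt1 KO for day 6. Its means were 143 against 46.6 RPM for day 9 and 33.9 against 39.0 RPM for day 11. The sum of the 12 was higher in Dnmt1 KO on days 1, 3 and 6 and lower on days 9, 11 and 25. It was 111105 to 114800 RPM in control against 130508 to 139222 RPM in Dnmt1 KO for day 6. By day 25 it was 176156 to 209785 RPM against 136659 to 141633 RPM. A list of 9 fibroblast or mesenchymal miRNAs, of which 8 were in the table, was also present: its summed level was 10544 to 13374 RPM in control on day 1. On day 11 it was 11633 to 12370 RPM in control against 13703 to 16193 RPM in Dnmt1 KO, and by day 25 it had come to 1314 to 1463 RPM against 1374 to 1454 RPM. Most of this sum in the time course was Mir143, with control means of 9691 RPM on day 1 and 951 RPM by day 25. Of that list Mir199a-1 had a mean of 0 RPM in every time-course group. Of a blood list of 5 miRNAs nearly all reads of the time course were those of Mir142, with means of 625 RPM in control against 1830 RPM in Dnmt1 KO on day 11 and of 657 against 456 RPM by day 25, while the other members had at most 3.72 RPM in any group. Mir302a, Mir143, Mir142 and Mir128-1 were chosen after their values were seen. Of 7 neural miRNAs 4 were in the table, with 36.4 to 116 RPM in the time course, most of it Mir128-1, and 3 muscle miRNAs had at most 0.412 RPM. Fewer cells of a type and less RNA per cell cannot be told apart in these bulk libraries.

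Dlk1 (chr12:110691033-110701546, plus strand) and Dio3 (chr12:111517278-111519307, plus strand) held no small feature, so that all their reads remained. Meg3 (chr12:110779211-110809936, plus strand) held 2 miRNA features, Rtl1 (chr12:110827404-110838540, minus strand) 6, Rian (chr12:110842155-110899919, plus strand) 4 miRNA and 13 snoRNA features, and Mirg (chr12:110973191-110987665, plus strand) 10 miRNA features. All coordinates are of the NCBIM37 build, and each span covers exons and introns alike.

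**Figure D1:**
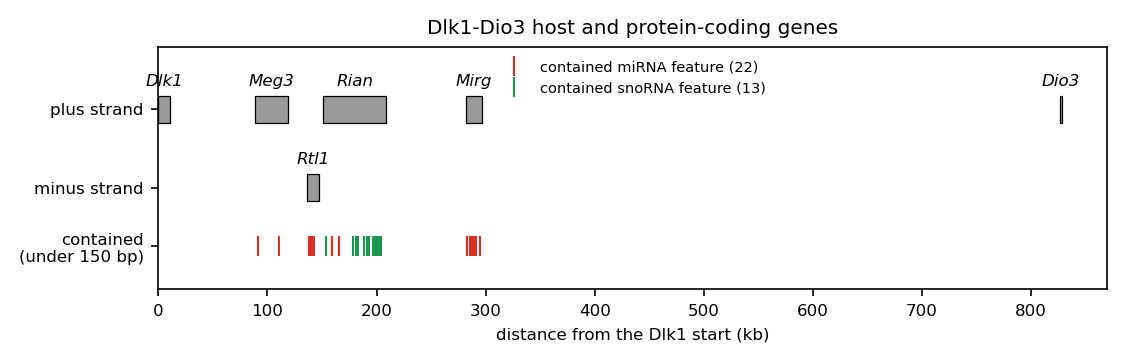
The 6 genes by strand, with the 22 miRNA and 13 snoRNA features inside them, against the distance from the Dlk1 start in kb. The small features lie in Meg3, Rtl1, Rian and Mirg, and none lies in Dlk1 or Dio3.

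Of the 22 contained miRNA features, 20 coincided with a RefSeq hairpin matched to the same build, and no RefSeq hairpin found inside the 6 genes lay outside them. The feature named AC121784.1, annotated on the minus strand inside Mirg, covers the plus-strand hairpin of Mir409 (chr12:110981368-110981446). The hairpin of Mir3071 lies antisense to that of Mir136 (chr12:110833528-110833607 and chr12:110833537-110833598), and reads of the pair cannot be told apart here. The mature sequences below are those of the leading miRNA of each host and of Mir409, because the host values described further on are largely theirs; they are from RefSeq (GRCm38.p6), with the seed, bases 2 to 8, in capitals.
mmu-miR-127-5p: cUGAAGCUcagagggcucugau
mmu-miR-127-3p: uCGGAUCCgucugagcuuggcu
mmu-miR-341-5p: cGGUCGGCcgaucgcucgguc
mmu-miR-341-3p: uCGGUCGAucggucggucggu
mmu-miR-541-5p: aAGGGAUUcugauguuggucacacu
mmu-miR-541-3p: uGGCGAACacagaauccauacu
mmu-miR-409-5p: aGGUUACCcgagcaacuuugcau
mmu-miR-409-3p: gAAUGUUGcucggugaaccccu
mmu-miR-770-5p: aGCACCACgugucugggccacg
mmu-miR-770-3p: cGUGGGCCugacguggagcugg
Mir127 took 77.5% of all Rtl1 reads of the time course, Mir341 39.1% of the Rian reads, Mir541 57.4% and the feature over Mir409 14.0% of the Mirg reads, and Mir770 47.9% of the Meg3 reads. The hairpins of all features with over 1% of their host's reads gave 24 mature arms with 24 different seeds, so no seed was shared. The feature values do not tell the arms apart. The sequence of mmu-miR-541-5p has 25 bases, above the 20 to 24 nt kept, so reads of its full length would not be counted.

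The snoRNA features of Rian belong to the C/D box class, which guides methylation of other RNAs. The pair with the most reads is shown, read from the NCBIM37 genome with the C box (TGATGA) and the last D box (CTGA) in capitals, since these features carried many of the Rian reads outside miRNAs.
SNORD113, chr12:110887827-110887898, plus strand: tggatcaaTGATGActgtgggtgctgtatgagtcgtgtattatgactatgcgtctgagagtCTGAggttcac
AF357355, chr12:110892837-110892908, plus strand: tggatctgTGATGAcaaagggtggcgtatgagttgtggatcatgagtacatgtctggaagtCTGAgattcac
These features took 17.4% and 6.83% of the Rian reads of the time course, and 8 of the 13 contained snoRNA features held both motifs on their own strand.

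The promoter window of Meg3, from 250 bases before to 50 bases after its start, is shown with each CG in capitals, because Meg3 is the first of the maternal transcripts and the domain is governed by DNA methylation (RefSeq, GRCm38.p6).
Meg3 promoter: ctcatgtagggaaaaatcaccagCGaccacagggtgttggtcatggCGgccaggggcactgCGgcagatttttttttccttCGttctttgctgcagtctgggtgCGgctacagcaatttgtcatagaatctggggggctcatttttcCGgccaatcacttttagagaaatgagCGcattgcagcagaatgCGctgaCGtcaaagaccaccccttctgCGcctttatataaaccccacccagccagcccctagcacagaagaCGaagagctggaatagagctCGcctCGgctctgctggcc
It held 13 CG dinucleotides, and 37.9% of the 32851 promoter windows of the RefSeq set held as many or more. This is the first of the Meg3 windows, and the other held 1. The window of Dlk1 held 9, that of Mirg 10, that of Dio3 25 and that of Rian 0. The letters TGACGTCA, the cAMP response element and its own reverse complement, were in this window and in no other of those named, and in 1.79% of all promoter windows. Methylation was not measured in these libraries.

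Neither outer protein-coding gene gave enough reads for a test. Dlk1 had 5 reads over the 18 control libraries, or 0.101 RPM (95% Poisson interval 0.0328 to 0.236), and 10 reads over the 18 Dnmt1 KO libraries, or 0.160 RPM (0.0767 to 0.294). The intervals overlap, and a difference was not detectable at this depth. Dio3 had 14 control reads, or 0.283 RPM (0.155 to 0.475), and 18 Dnmt1 KO reads, or 0.288 RPM (0.171 to 0.455). In the AGO2 libraries Dlk1 had 1 read among the control and 0 among the Dnmt1 KO libraries, and Dio3 had 0 in both. For 0 reads the upper 95% Poisson limit is 0.0465 RPM in the control and 0.210 RPM in the Dnmt1 KO libraries. Neither gene passed the filter on low values in any comparison.

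Rtl1 held the most reads of the 6 genes, yet almost none of them lay outside its miRNAs. On day 1 the control libraries had 6347, 6835 and 7185 RPM and the Dnmt1 KO libraries 6229, 5572 and 6652 RPM, and the groups overlapped. On day 11 the control libraries had 3960, 3808 and 3517 RPM and the Dnmt1 KO libraries 50772, 45286 and 43234 RPM. On day 25 the control libraries were down to 66.3, 36.5 and 47.8 RPM, while the Dnmt1 KO libraries had 62281, 61935 and 61483 RPM. From day 3 on every Dnmt1 KO library lay above every control library of its day. The mean ratio was 12.3-fold on day 11 and 1233-fold on day 25. Over the whole time course 6 of 234544 control reads and 50 of 1962778 Dnmt1 KO reads of Rtl1 were left after the 6 miRNA features were subtracted, which is 0.00256% (95% Wilson interval 0.00117 to 0.00558) and 0.00255% (0.00193 to 0.00336). No library had more than 11 remaining reads. Rtl1 lies on the minus strand and its miRNA features on the plus strand, so the Rtl1 value is a value of the antisense miRNAs, and the remaining reads were too few for the test.

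Mirg behaved much as Rtl1 in all reads, but its Dnmt1 KO libraries did hold reads outside the miRNAs. On day 1 the control libraries had 1608, 1563 and 1902 RPM, against 1799, 1583 and 1843 RPM in the Dnmt1 KO libraries. On day 11 the values were 1023, 977 and 934 RPM against 20191, 17937 and 18322 RPM. On day 25 they were 34.1, 21.1 and 31.9 RPM against 26831, 26596 and 24992 RPM. The groups overlapped on day 1 and stood apart on each later day, by 19.2-fold on day 11 and 901-fold on day 25 in the means.

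The remaining reads of Mirg were 0 to 2 in every control library and in every Dnmt1 KO library of days 1 and 3. In Dnmt1 KO they were 38, 33 and 24 by day 6. Day 9 had 102, 119 and 101, day 11 had 67, 68 and 56, and day 25 had 21, 21 and 11. Against 3 reads per control library, the mean remaining level was at least 8.12-fold higher on day 6. The same bound was 28.8-fold for day 9, 14.2-fold for day 11 and 5.50-fold for day 25. These reads were a small part of the gene: in Dnmt1 KO they made 0.111% ± 0.020 (SD, n = 3) on day 6, then 0.105% ± 0.013, 0.0695% ± 0.0024 and 0.103% ± 0.021 for days 9, 11 and 25. Averaged over days 1 to 11 the remaining share was 0.0101% in control and 0.0606% in Dnmt1 KO, with 15 libraries each (two-sided permutation test within days, p = 0.00082, adjusted over 3 genes p = 0.00123). The Dnmt1 KO mean was lower than control on 2 of the 5 days, days 1 and 3, and the groups stood apart on 3.

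Rian, unlike Rtl1 and Mirg, held a large share of its reads outside its annotated small features. SnoRNA copies missing from the annotation were not searched for, and their reads would count as remaining. On day 1 the control libraries had 186, 205 and 180 RPM, against 279, 199 and 222 RPM in the Dnmt1 KO libraries, with overlap. On day 11 the values were 197, 165 and 168 RPM against 2950, 2581 and 2569 RPM. On day 25 control libraries held 2, 1 and 2 reads, while the Dnmt1 KO libraries had 3943, 3920 and 3902 RPM. Against 3 reads per control library the day 25 mean was at least 794-fold higher. The remaining reads rose as well: day 11 had 78.9, 59.9 and 63.0 RPM in control against 464, 446 and 474 RPM in Dnmt1 KO, and day 25 had 1, 0 and 0 control reads against 511, 514 and 512 RPM.

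The parts of Rian did not rise by the same factor. On day 6 the mean of its miRNA features was 19.9-fold higher in Dnmt1 KO, that of its snoRNA features 5.37-fold and the remaining level 3.44-fold. For day 9 these ratios were 13.2, 5.94 and 3.90. By day 11 they were 26.7, 17.3 and 6.86. The remaining share of the Rian reads was therefore lower in Dnmt1 KO. On day 1 it was 24.1% ± 3.3 (SD, n = 3) in control against 22.2% ± 1.4 in Dnmt1 KO, and day 3 gave 26.8% ± 0.58 against 26.0% ± 1.8. Day 6 gave 32.0% ± 3.5 against 14.4% ± 0.28. Day 9 gave 25.6% ± 1.9 against 12.8% ± 0.77, and day 11 gave 38.0% ± 2.0 against 17.2% ± 1.4. On days 6, 9 and 11 every Dnmt1 KO library lay below every control library. Averaged over days 1 to 11 the share was 29.3% in control and 18.5% in Dnmt1 KO, a difference of -10.8 percentage points over 15 libraries each (two-sided permutation test within days, p = 3e-05, adjusted over 3 genes p = 9e-05). For Rtl1 the difference was -0.00095 percentage points at a within-day SD of 0.0037 points (permutation test, p = 0.489, adjusted p = 0.489).

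**Figure D2:**
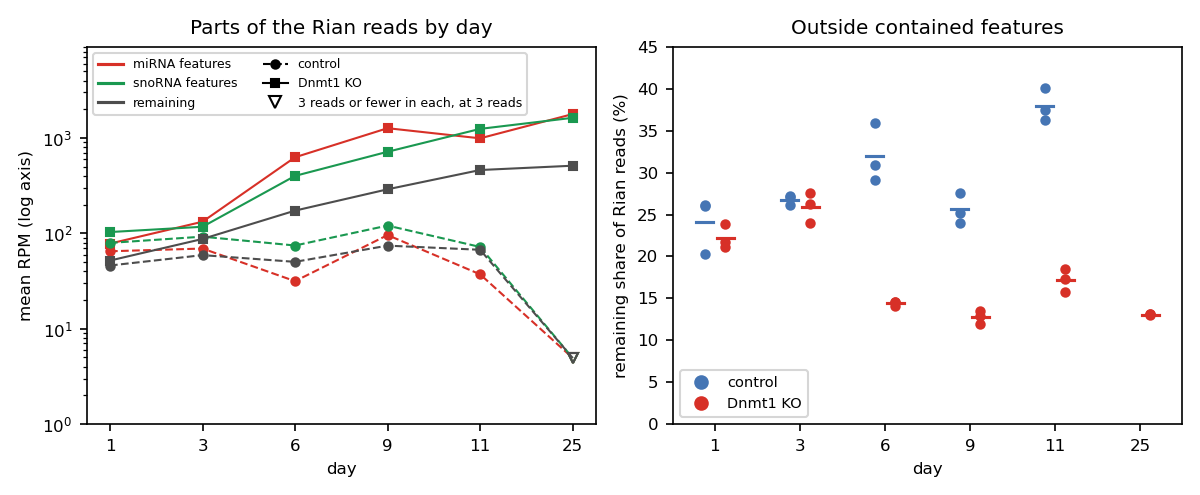
Left, mean RPM (log axis) of the miRNA, snoRNA and remaining parts of Rian by day in control (dashed) and Dnmt1 KO (solid), 3 libraries a point, with triangles at 3 reads where no library had more. Right, the remaining share of the Rian reads in each library with bars at group means. Control of day 25 is not drawn, as it had 1 or 2 reads a library. Dnmt1 KO lies below control on days 6, 9 and 11.

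Of Rian, 2 of the 4 miRNA features and 6 of the 13 snoRNA features were abundant enough to test. Mir341 rose on day 3 by a log2 difference of 0.93 (SE 0.13, adjusted p = 6.31e-06, limma), and Mir370, with 0.97 (SE 0.27, adjusted p = 0.0230), rose with it. None of the 6 snoRNA features passed the test on day 3, with log2 differences of 0.14 to 0.65, and all 6 rose on each of days 6, 9, 11 and 25. Of all features 6.24% were called on day 3 and 23%, 18.4%, 8.64% and 35% on the later days in turn. On day 11 the snoRNA features rose by 3.54 to 5.47 and the miRNA features by 4.57 and 6.07 on the log2 scale. Pooled over libraries, Mir370 took 2.12% of the Rian reads in control of days 1 to 11 against 6.17% in Dnmt1 KO of all days, and Mir341 took 26.9% against 40.3%.

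Meg3 had few reads, and about as many of them outside as inside its miRNA features. On day 1 the control libraries had 4, 1 and 3 reads and the Dnmt1 KO libraries 10, 10 and 3. On day 6 there were 5, 4 and 4 control reads against 37, 46 and 35 Dnmt1 KO reads. Day 11 had 3, 7 and 3 against 94, 125 and 94 reads, and day 25 had 0 control reads against 20, 20 and 12 Dnmt1 KO reads. The groups stood apart from day 6 on, with means of 1.24 RPM ± 0.43 (SD, n = 3) and 21.3 RPM ± 1.4 on day 11. The remaining level on day 11 was 0.487 RPM ± 0.63 among the control libraries against 10.1 RPM ± 1.3 among the Dnmt1 KO libraries, and its day 25 level of 19.5 RPM ± 4.4 in Dnmt1 KO stood against 0 control reads, at least 3.94-fold higher than 3 reads per library. Pooled, 44.1% of 93 control reads (95% Wilson interval 34.4 to 54.2) and 52.6% of 929 Dnmt1 KO reads (49.4 to 55.8) remained. The remaining share was not tested, as control libraries had too few reads on every day.

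**Figure D3:**
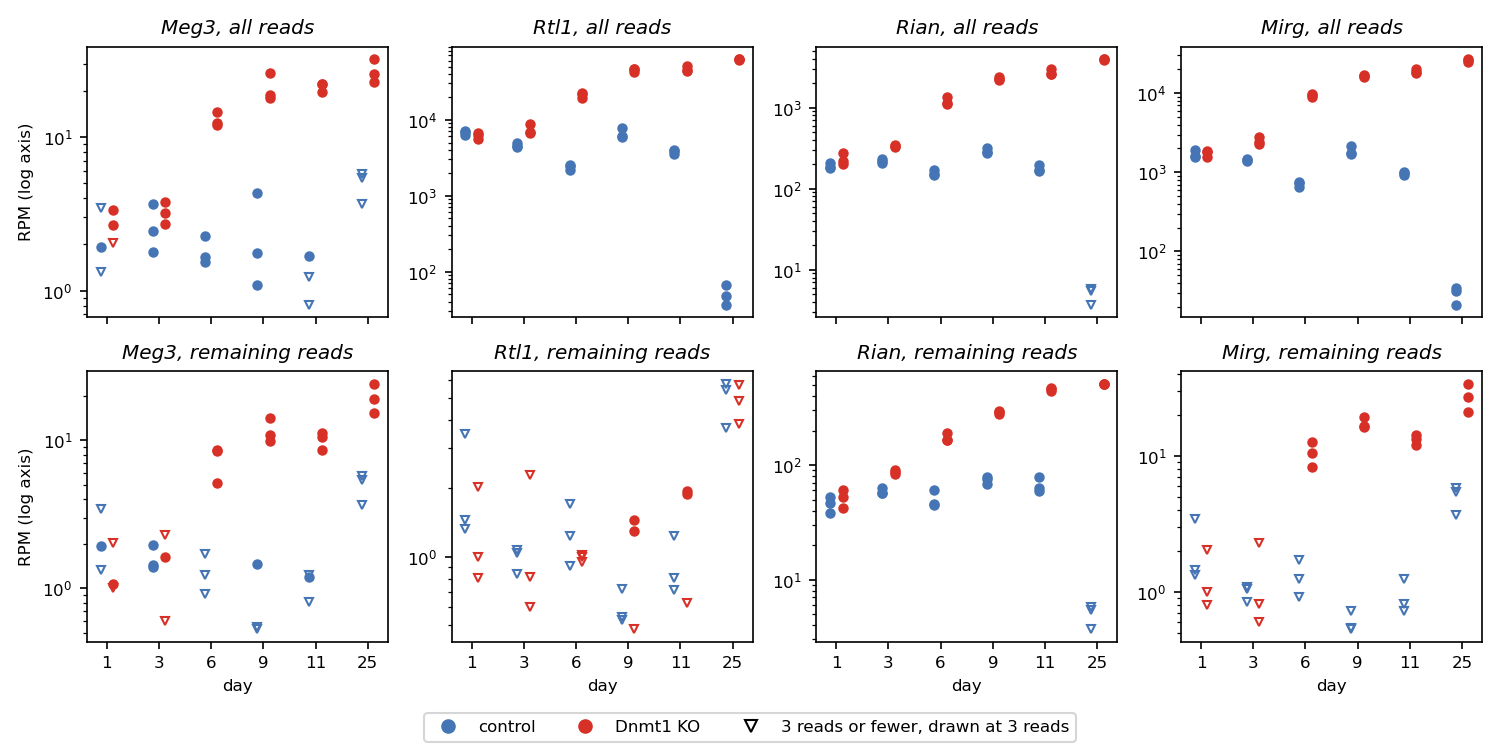
RPM (log axes) of all reads (upper row) and of remaining reads (lower row) of Meg3, Rtl1, Rian and Mirg by day, 1 point a library, 3 a group; triangles stand at the level of 3 reads where a library had 3 or fewer. Dnmt1 KO and control stand apart from day 6 at the latest in all panels except the remaining reads of Rtl1.

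The 4 genes with enough reads were then tested beside all other features. In all reads Meg3, Rtl1, Rian and Mirg passed the filter on low values, and Dlk1 and Dio3 did not. On day 1 none of the 4 was called, where 3.8% of all 2582 tested features were, and their unadjusted p ran from 0.0980 to 0.718. On day 3 Rtl1, Rian and Mirg rose by 0.69, 0.63 and 0.82 on the log2 scale (SE 0.14, 0.12 and 0.12; highest adjusted p = 0.000866, limma), against 6.24% of features called, and Meg3 had 0.26 (adjusted p = 0.738). All 4 rose on day 6 (23% of features called), day 9 (18.4%), day 11 (8.64%) and day 25 (35%). On day 11 the log2 differences were 3.40 for Meg3, 3.71 for Rtl1, 4.01 for Rian and 4.35 for Mirg (highest adjusted p = 4.66e-11), beside a median of -0.051 over all features tested. In the remaining reads Meg3, Rian and Mirg passed the filter. None was called on day 1 (3.74% of 2408 features called) or day 3 (5.4%), and all 3 rose on day 6 (21%), day 9 (15.6%), day 11 (8.22%) and day 25 (33.7%). On day 3 the remaining reads of Rian had 0.58 (SE 0.20, unadjusted p = 0.00716, adjusted p = 0.0932) and were called under a pseudocount of 5, with voom and with that day fitted alone. Their day 11 log2 differences were 3.06 for Meg3, 2.89 for Rian and 3.78 for Mirg, and the fitted sizes for Meg3 and Mirg depend on the pseudocount, as control held 0 to 5 remaining reads a library.

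The genotype difference grew between day 1 and day 11. The change was 3.02 on the log2 scale for Meg3 (SE 0.46), 3.94 for Rtl1 (SE 0.19), 3.82 for Rian (SE 0.17) and 4.39 for Mirg (SE 0.17) in all reads, each called (highest adjusted p = 4.15e-06, limma; 9.02% of features called). In the remaining reads it was 3.23 for Meg3, 2.80 for Rian and 3.97 for Mirg, each called as well (8.22% of features called). The summed fibroblast and mesenchymal miRNAs also differed by genotype on some days, with medians of 7589 RPM against 13283 RPM in Dnmt1 KO for day 6 and of 13479 against 25927 RPM for day 9. Their part in the result was not tested.

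The control cells had far fewer of these reads by day 25. Against day 1 control, all reads fell by 7.22 on the log2 scale for Rtl1, 5.83 for Rian and 5.97 for Mirg (limma, highest adjusted p = 9.16e-33; 50.9% of features called). Meg3 was called too, with -1.41 (adjusted p = 0.000415), but it had 1 to 4 reads a library on day 1 and 0 on day 25, when 3 reads were worth 3.68 to 5.76 RPM, so a lower level was not detectable at this depth, and with voom the adjusted p was 0.149. Rtl1 went from a mean of 6789 to 50.2 RPM and Mirg from 1691 to 29.0 RPM, 135-fold and 58.3-fold lower, and Rian was at least 38.5-fold lower against 3 reads per library. The remaining reads of Rian fell too, by at least 9.32-fold, those of Mirg were at or under 3 reads a library on both days, and those of Meg3 had a log2 difference of -1.06 (adjusted p = 0.0182; 49.3% of features called), again between 1 to 4 reads and 0. Without control day 1 replicate 1 it was -0.84 (adjusted p = 0.0982). The fibroblast and mesenchymal list fell from a median of 10620 to 1353 RPM between the same groups, and its part in the result was not tested.

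Per kb of sequence the order of the genes differed between all and remaining reads. In Dnmt1 KO on day 11, all reads gave 4169 RPKM for Rtl1, 1300 for Mirg, 46.7 for Rian, 0.693 for Meg3, 0.218 for Dio3 and 0.0133 for Dlk1. Over the bases outside contained features the remaining level was 8.18 RPM per kb for Rian, 0.957 for Mirg, 0.331 for Meg3 and 0.121 for Rtl1, and that of Dio3 and Dlk1, which hold no small feature, was as above. The Dio3 and Dlk1 values rest on 6 and 2 reads over the 3 libraries, those of Dlk1 from the same library. Remaining Rtl1 reads were 0 to 11 a library, so the lowest places in both orders are not settled. Rtl1 and Mirg thus led by their miRNAs, and Rian led in the remaining reads. In control on the same day the remaining level was 1.19 RPM per kb for Rian, and the other genes, with 0 to 5 remaining reads a library, could not be ordered.

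In the AGO2 libraries the hosts were represented by their miRNAs almost alone. Rian had 962, 2208, 3227 and 10692 reads in the Dnmt1 KO libraries, of which 0, 0, 2 and 7 remained and 0.125% ± 0.13 (SD, n = 4) lay in snoRNA features. Pooled, 0.0527% of these reads remained (95% Wilson interval 0.0277 to 0.10), beside 12.8% ± 0.77 in the Dnmt1 KO cells of day 9 without immunoprecipitation. Mir341 took 81.4% and Mir370 18.3% of the pooled AGO2 Dnmt1 KO reads of Rian, and the leading SNORD113 feature, shown above, took 0.0468%. Meg3 had 8, 13, 48 and 88 reads in AGO2 Dnmt1 KO, of which 0, 1, 1 and 0 remained, and Mir770 took 98.7%. Rtl1 and Mirg each had 2 remaining reads, of 911146 and 403305, both in 1 library, and AGO2 control had 0 of 10552 and of 5456, too few to compare the shares. No gene's remaining reads passed the filter on low values, where 43.3% of the 330 features tested were called.

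**Figure D4:**
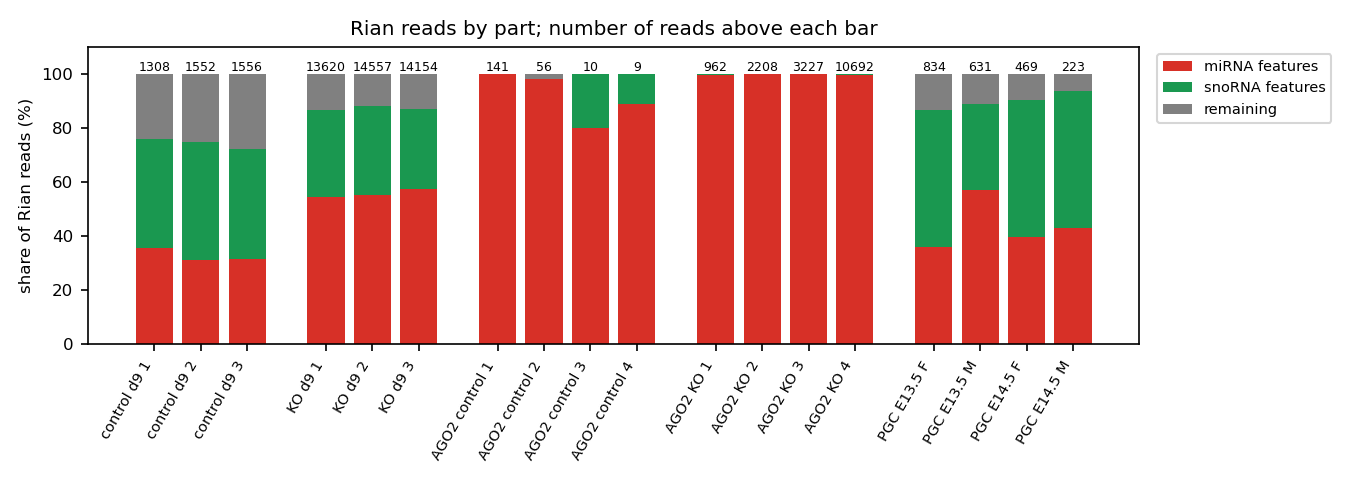
Share of the Rian reads in miRNA features, in snoRNA features and remaining, 1 bar a library, with the read number above each bar, for day 9 ESCs, the AGO2 libraries and the PGCs. miRNA features fill nearly the whole bar in AGO2 Dnmt1 KO, and AGO2 control replicates 3 and 4 rest on 10 and 9 reads.

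Between the AGO2 groups Rtl1, Rian and Mirg stood apart in every library. Rtl1 had 311, 296, 7.62 and 8.93 RPM in control against 55737, 56038, 49787 and 51379 RPM in Dnmt1 KO. Rian had 6.48, 4.87, 0.485 and 0.354 RPM against 835, 1421, 957 and 928 RPM, and Mirg 158, 135, 9.56 and 10.8 RPM against 27669, 29885, 19987 and 22357 RPM. All 3 genes tested were called, with log2 differences of 9.72 (SE 1.2) for Rtl1, 8.19 (SE 0.57) for Rian and 9.0 (SE 0.87) for Mirg, at a highest adjusted p of 0.00014 (limma; 36.4% of 456 features called). Within control, replicates 1 and 2 lay above replicates 3 and 4 in each of these genes. Within Dnmt1 KO the same order, with a far smaller gap, held for Rtl1 and Mirg but not for Rian. The Rtl1 ratio of means was 184-fold over replicates 1 and 2 and 6114-fold over replicates 3 and 4, and for Rian and Mirg it was 199 and 197-fold against 2246 and 2082-fold. Without immunoprecipitation, control libraries of days 1 to 11 had 2152 to 7746 RPM of Rtl1, above every AGO2 control library. Control of day 25 had a mean of 50.2 RPM. Dnmt1 KO had a mean of 45542 RPM on day 9, beside 53235 RPM in AGO2 Dnmt1 KO. The large Rtl1 ratios thus go with a low AGO2 control level, whose cause was not tested. Meg3 had 0 reads in the 4 control libraries and was at least 56.1-fold higher in Dnmt1 KO against 3 reads per library. The summed fibroblast and mesenchymal miRNAs were 1684 to 3629 RPM in AGO2 control and 4582 to 5029 RPM in AGO2 Dnmt1 KO, and those of a blood list 1112 to 1479 and 3157 to 6182 RPM. Their part in the difference was not tested.

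The PGCs, cells that lose DNA methylation in the embryo, had levels within or near those of control ESCs for the miRNA hosts, and a different pattern at the edges of the domain. Each PGC group was a single library, so values carry counting intervals and no test. Rtl1 had 4570 RPM at E13.5 in female and 3574 RPM in male cells, and 2109 and 2225 RPM at E14.5. Mirg had 1653 and 1607 RPM at E13.5 and 990 and 1057 RPM at E14.5, and Rian 296 and 212 RPM at E13.5 and 136 and 129 RPM at E14.5. Both E14.5 libraries lay below both E13.5 libraries for each of these hosts. None of the 34608 Rtl1 reads remained, which allows a share of up to 0.0111%, and 8 of 14674 Mirg reads remained.

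The remaining share of Rian in the PGCs was 13.4% (95% Wilson interval 11.28 to 15.9) at E13.5 in female and 11.25% (9.02 to 14.0) in male cells, and 9.59% (7.25 to 12.6) and 6.28% (3.78 to 10.3) at E14.5. Control ESC libraries of days 1 to 11 had 20.3% to 40.1%. SnoRNA features took 50.5%, 31.7%, 50.5% and 50.7% of the Rian reads in the same order. Meg3 had 2, 4, 1 and 0 reads, or 0.639 RPM pooled (95% Poisson interval 0.257 to 1.32), below the 1.96 RPM (1.58 to 2.4) of control ESCs on days 1 to 11. Dio3 had 3, 13, 12 and 6 reads, or 3.1 RPM pooled (2.15 to 4.33), above the 0.283 RPM of control ESCs, and Dlk1 had 6, 1, 0 and 0 reads, or 0.639 RPM (0.257 to 1.32). Of the 7 Dlk1 reads, 6 came from the E13.5 female library, in which the fibroblast and mesenchymal miRNAs summed to 15291 RPM, beside 4009 to 6254 RPM in the other PGC libraries. Dio3 had its fewest reads in that library. The source of the Dlk1 reads was not tested.

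**Figure D5:**
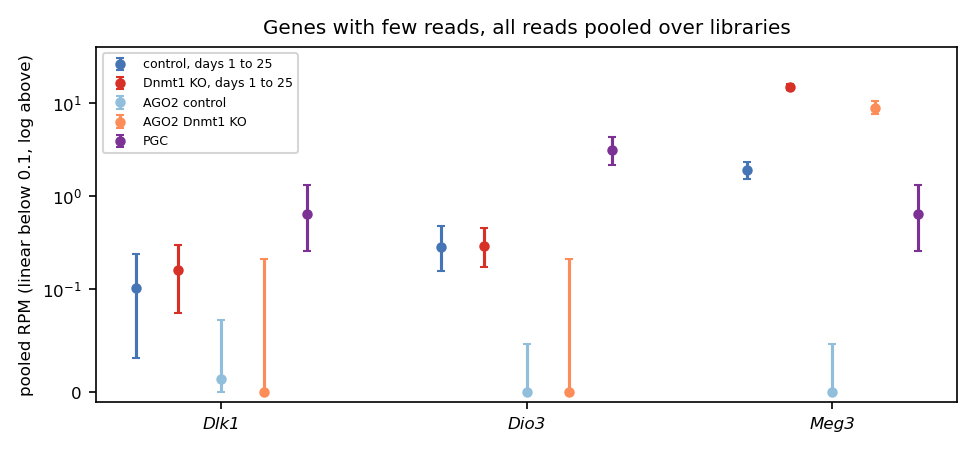
Pooled RPM of Dlk1, Dio3 and Meg3 in control and Dnmt1 KO ESCs of all days, the AGO2 libraries and the 4 PGC libraries; the axis is linear below 0.1 and logarithmic above, and bars are 95% Poisson intervals. Meg3 is highest in Dnmt1 KO ESCs and Dio3 in the PGCs.

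The other 3 PGC libraries, whose titles end in R1, had 60317 to 1328606 reads. The E13.5 male library among them stood apart, with 6 Rtl1 reads, or 99.5 RPM, and 0 reads of Rian and Mirg. The E13.5 female and E14.5 male libraries had 7276 and 3392 RPM for Rtl1 and remaining shares of 10.8% and 7.41% for Rian. Their E14.5 male library held all 6 Dio3 reads of the 3.

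Few longer features around the 6 genes were abundant enough to test. Of 12 flanking genes on chromosome 12, 4 were tested in all reads. None was called on days 1 to 11, when 3.8% to 23% of all features were called. At these shares 0 calls among 4 genes do not set them apart from all features. Ppp2r5c rose (0.63) and Evl fell (-0.60) at day 25, when 35% of all features were called. Of 13 genes that set or read imprints and DNA methylation, 10 were tested: Tet1 (0.71) and Trim28 (0.51) rose at day 6, Tet1 fell (-0.51) at day 25, and none was called on days 1, 3, 9 and 11. These counts of 2 and 1 among 10 stand beside 23% and 35% of all features. On days 1, 3, 9 and 11 in turn 3.8%, 6.24%, 18.4% and 8.64% of all features were called. In the remaining reads Trim28 was not called at day 6 (0.42, adjusted p = 0.112, limma). Ppp2r5c, Evl, Tet1 and Trim28 were named after their values were seen. Of the other features of at least 150 bp between Dlk1 and Dio3 only Dio3os, the RNA antisense to Dio3, was tested. It rose on day 11 with a log2 difference of 1.47 (SE 0.37, adjusted p = 0.00485, limma), when 8.64% of all features were called. Dio3os was called on no other day.

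Across the 36 time-course libraries the features off chromosome 12 most like Mirg in log2 level were Mir470 on chromosome X (Pearson r = 0.909), BX470216.1 (r = 0.901) and Ccdc30 (r = 0.899) on chromosome 4. For Meg3 they were Mir470 (r = 0.908), Mir463 and Mir871, all on chromosome X. On chromosome 12, Rtl1 was most like Mir411 (r = 0.997) and Mir410 (r = 0.995), and Rian like Mir410 and Mirg (r = 0.995 each). Mirg was most like Mir379 and Rian (r = 0.995 each), and Meg3 like Mir370 (r = 0.97) and Mir323 (r = 0.968). Mir379, Mir411 and Mir323 lie between Rian and Mirg, outside the 6 genes, so miRNAs of the domain beyond these hosts followed them across libraries. BX470216.1 lies within Ccdc30, and Mir410 within Mirg. These are descriptions across libraries that share genotype and day.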

How the data were processed

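Small RNAs were sequenced from 83 libraries of mouse ESCs, AGO2 immunoprecipitates and PGCs. Following the study's methods and the submitters' processing notes, reads were trimmed (Trim Galore 0.3.5), kept at 20 to 24 nt, mapped to NCBIM37 with Bowtie2 2.2.9 and counted over annotated features with SeqMonk. The deposited values are RPKM, although the table is named as counts: multiplied by span they fall on whole reads in every library (all low values within 5% of a whole number), so reads and library totals were recovered. A read inside a nested feature counts for both features, and the values carry reads of either strand.

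For every host, the reads of contained features under 150 bp were subtracted. Of 1668 hosts 3 went below 0 in some library, none of them described here. log2(RPM + 1) values with TMM factors, computed on features with at least 10 RPM in at least 3 libraries, were fitted with limma 3.58.1 (R 4.3.3), the 36 time-course libraries together, with Benjamini-Hochberg adjustment over all features passing that filter. Fold differences are on that log2 scale, which understates changes of low genes. Calls needed an adjusted p under 0.05. Ratios of means are of plain RPM, with 3 reads per library where a group had no more. Remaining shares were compared where every library of a day had at least 20 reads (100000 permutations within days). The fits were checked on simulated reads with the same dispersion for every feature and no difference between pairs of replicates. That check did not cover the split among the AGO2 control replicates.

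The study's text places the AGO2 libraries of the deleted cells at day 9. The genes and lists were chosen with earlier results of these data known. The text names the 6 genes, their leading contained features by mean RPM, and the most correlated features; members of other lists only where a count rests on them. Libraries whose titles end in R1 have mostly even read numbers and entered only an alternative. No replicates agreed within sampling noise (lowest chi-square per degree of freedom 1.62). Same-numbered AGO2 libraries deviated together (correlations 0.34, 0.269, 0.194 and 0.386). Differently numbered ones were not compared, so pairing by number is not settled. The AGO2 values in the Results are from the fit without a replicate block, and a block changed no call there. Same-numbered time-course libraries did not deviate together (-0.066 to 0.047). Alternatives were other scaling, pseudocounts, filters, voom, other subtractions and leaving out each library. Intervals are exact Poisson or Wilson, at 95%.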

Additional observations from a re-analysis of the deposited data

Results flagged for a closer look

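The genotype difference on day 11 differed from that on day 1 in every gene tested, by 3.02 (Meg3), 3.94 (Rtl1), 3.82 (Rian) and 4.39 (Mirg) on the log2 scale in all reads and by 3.23 (Meg3), 2.80 (Rian) and 3.97 (Mirg) in remaining reads.

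The libraries labelled none, which enter no comparison, held reads of these hosts. The control library had 36 reads of Rtl1 and 9 of Mirg among 57155 reads, and the Dnmt1 KO library 223 of Rtl1, 8 of Rian and 106 of Mirg among 9830 reads. That is 630 and 22686 RPM for Rtl1, from 1 library each. The study describes a control of beads without serum, and the labels do not say that these libraries are it.

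Among 19 sets of 4 AGO2 libraries, 8 had a single library far from the rest. Each rests on 1 or 2 reads while the other 3 libraries had 0, where any read sets a library apart, so the usual chance rate of about 1 in 20 does not apply. The Dlk1 level, the same value in all and remaining reads, reached 0.0870 RPM in 1 control library, the remaining Rian level 0.0870 RPM and the remaining Rian share 1.79% in 1 control library, and the remaining level of Rtl1 and Mirg 0.174 RPM, with shares of 0.000338% and 0.000777%, in 1 Dnmt1 KO library.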

How the results depend on the processing

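Under the other scalings, pseudocounts, filters and fits, 213 counts of called genes and shares and 633 gene values kept their direction and their side of the threshold, 8 gene values lost their call, 3 gained one, 4 changed sign and 6 counts moved. When single libraries were left out, 213 counts and shares and 388 gene values kept theirs, 1 lost its call, 13 changed sign and 1 count moved. The count of genes called in the remaining reads on day 3 was 0 and became 1 (Rian) with a pseudocount of 5, voom or the day fitted alone. The count in the remaining reads of control day 25 against day 1 was 2 and became 1 with a pseudocount of 5, voom or the filter of 1 RPM in 3 libraries, and ran from 1 to 2 with single libraries left out, where control day 1 replicate 1 decided it. The cause was not tested.

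Values that changed sign were all uncalled. On day 1 the Mirg log2 difference in all reads was 0.044 with library totals, and with the R1-ending libraries that of Rian was -0.041 in all and -0.61 in remaining reads; on day 3 that of Meg3 was -0.66 in all reads with them. With single libraries left out, the day 1 values ran from -0.053 to 0.77 for Meg3 and from -0.11 to 0.054 for Mirg in all reads, and in remaining reads from -0.43 to 0.058 for Meg3, -0.085 to 0.23 for Rian and -0.35 to 0.13 for Mirg. The day 3 values in remaining reads ran from -0.44 to 0.014 for Meg3 and -0.13 to 0.18 for Mirg, and Mirg in control day 25 against day 1 from -0.31 to 0.35. With only miRNA features subtracted the Rian share difference was -15.6 percentage points, and the other subtractions gave -10.8. The replicate block changed no call, with an AGO2 log2 difference of 9.72 for Rtl1 (adjusted p = 0.000187), and the same blocked fit gave 3.71 for Rtl1 on day 11, where same-numbered libraries share only a number. Averaging AGO2 replicates 1 and 2, and 3 and 4, left all 3 genes called (highest adjusted p = 0.0192). Below 3 reads a library, depth limits every statement on Dlk1, Dio3 and the remaining reads of Rtl1.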
